A study of Mus musculus with 12 samples.

Results

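Type IV collagen is the sheet-forming collagen of basement membranes, and its chains are encoded by Col4a1, Col4a2, Col4a3, Col4a4, Col4a5 and Col4a6. The 6 genes were found by their symbols in the deposited lung tables, among 20774 genes listed in any library and 44 genes for collagen chains. All 6 were listed in all 12 libraries, and all 6 passed the filter on low counts that left 15921 genes for testing. The mice were wild-type C57BL/6J with an age label of 8 weeks in every group. PQ 1w and PQ 4w mice had received paraquat, a herbicide that injures the lung through oxidative stress, in saline through the trachea on a single occasion. The control 1w and control 4w mice received saline. Each of the 4 groups had 3 libraries of RNA from homogenised lung, and the age label does not separate the times.

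Collagen IV chains are made as procollagen, fold in threes into triple helices in the endoplasmic reticulum, and link end to end outside the cell into a network that holds laminin, nidogen and perlecan. The products of Col4a1 and Col4a2 form the network of nearly every basement membrane, including those of blood vessels. Those of Col4a3, Col4a4 and Col4a5 form a network known from the kidney glomerulus and the alveolar wall, and loss of any of them causes Alport syndrome. The Col4a5 chain also pairs with the Col4a6 chain in a network known from smooth muscle and some epithelia.

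The genes lie in head-to-head pairs, with the members of a pair on opposite strands and their starts close together. On GRCm38.p6, Col4a1 spans chromosome 8 from 11198423 to 11312889 on the minus strand, and Col4a2 spans 11312805 to 11449287 on the plus strand. Col4a4 spans chromosome 1 from 82448419 to 82587034 on the minus strand, and Col4a3 spans 82586921 to 82722059 on the plus strand. Col4a6 spans chromosome X from 141165403 to 141474095 on the minus strand, and Col4a5 spans 141475370 to 141689236 on the plus strand. The annotated spans overlapped by 85 bases for Col4a1 and Col4a2 and by 114 bases for Col4a3 and Col4a4, while 1274 bases lay between Col4a5 and Col4a6. The strandedness of the libraries is not given in the sources used here, so reads from the 2 overlaps cannot be assigned to a strand. The expected counts of Col4a4 were not whole numbers in 12 of 12 libraries, and those of the other 5 chains were whole in all 12. RSEM gives fractional counts where it divides reads between genes, and the gene that shared reads with Col4a4 is not known here.

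The windows around annotated starts (250 bases before to 50 bases after, 5 of 6 chains matched in RefSeq tables of GRCm38.p6) are shown for Col4a1 and Col4a2, whose transcripts moved together, for Col4a4, whose window holds the annotated Col4a3 start, and for Col4a6, which moved the other way. Each is printed in the direction of its own gene, and capitals mark a CCAAT box (CCAAT, or ATTGG on the other strand) or a GC box (GGGCGG, or CCGCCC on the other strand).
Col4a1, chr8:11312777-11313076, minus strand: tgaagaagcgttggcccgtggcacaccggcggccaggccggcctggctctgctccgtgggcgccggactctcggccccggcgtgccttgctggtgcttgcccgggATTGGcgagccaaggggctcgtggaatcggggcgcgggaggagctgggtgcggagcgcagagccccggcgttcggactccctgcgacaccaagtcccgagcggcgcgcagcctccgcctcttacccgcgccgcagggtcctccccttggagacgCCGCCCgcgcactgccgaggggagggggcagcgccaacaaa
Col4a2, chr8:11312555-11312854, plus strand: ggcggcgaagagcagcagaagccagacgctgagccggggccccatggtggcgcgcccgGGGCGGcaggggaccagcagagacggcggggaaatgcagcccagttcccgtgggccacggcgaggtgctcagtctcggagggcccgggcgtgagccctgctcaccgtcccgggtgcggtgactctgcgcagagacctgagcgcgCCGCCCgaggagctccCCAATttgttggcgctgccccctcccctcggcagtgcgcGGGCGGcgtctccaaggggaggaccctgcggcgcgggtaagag
Col4a4, chr1:82586800-82587099, minus strand: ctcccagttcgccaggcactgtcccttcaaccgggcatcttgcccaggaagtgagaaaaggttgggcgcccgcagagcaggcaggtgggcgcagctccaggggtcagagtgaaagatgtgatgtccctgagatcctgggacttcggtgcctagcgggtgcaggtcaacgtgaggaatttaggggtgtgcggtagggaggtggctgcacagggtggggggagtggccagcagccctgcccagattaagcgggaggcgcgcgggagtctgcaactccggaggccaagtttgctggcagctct
Col4a6, chrX:141474027-141474326, minus strand: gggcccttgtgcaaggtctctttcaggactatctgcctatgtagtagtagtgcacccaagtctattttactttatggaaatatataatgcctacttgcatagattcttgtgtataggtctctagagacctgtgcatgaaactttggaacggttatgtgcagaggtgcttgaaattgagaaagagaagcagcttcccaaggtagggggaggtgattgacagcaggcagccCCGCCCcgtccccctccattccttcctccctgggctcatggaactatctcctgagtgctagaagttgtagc

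The Col4a1 and Col4a2 windows shared 78 bases, 11312777 to 11312854, so their matches are not independent. One GC box, at 11312812 to 11312817, is the match at base 260 of the Col4a1 window and at base 258 of the Col4a2 window. Col4a1 also held 1 CCAAT box, and Col4a2 held 1 CCAAT box and 3 GC boxes in all. Col4a6 held 1 GC box, Col4a5 held 1 CCAAT box and 1 GC box, and Col4a4 held neither. The annotated Col4a3 start falls at base 179 of the Col4a4 window. A TATA box (TATAAA) or AP-1 motif (TGANTCA), read on both strands, was in none of the 5 windows. Of all 32851 RefSeq windows of the same length, 37.4% held CCAAT, 35.7% GGGCGG, 13.6% TATAAA and 7.81% TGANTCA. G and C made up 74% of the Col4a1 window, 73.7% of Col4a2, 63.3% of Col4a4, 52.7% of Col4a5 and 48.3% of Col4a6. The median over all windows was 52.7%, with the 10th to 90th percentiles at 39.7% to 69.7%. These matches describe the letters of the windows and were not measured as binding sites.

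Library totals were 17220978 to 18559809 expected counts. The groups were compared with edgeR's quasi-likelihood test on all 12 libraries, with Benjamini-Hochberg adjustment over 15921 genes, and a gene rose or fell where the adjusted p was under 0.05. Values are CPM (counts scaled to library size with TMM factors), and ± marks the standard error of a log2 effect or the SD over 3 libraries. The labels number the replicates without saying whether each came from its own mouse, so the p-values refer to variation among these libraries, which may be technical. The lung markers were present, with a summed level of 12 of 12 alveolar type 1 genes at 4271 CPM or more in every library. PQ 4w replicate 3 stood apart from the other PQ 4w libraries: on principal component 2 of log2 CPM, which held 19.9% of the variance, it lay at 4.92 and replicates 1 and 2 at -42.0 and -40.3. Chi-square per degree of freedom for the pairs with replicate 3 was 30.8 and 32.9, against 7.12 to 15.4 for every other pair within a group.

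At 1w, Col4a1 and Col4a2 of the widespread network rose with paraquat, and Col4a6 fell. Col4a3, Col4a4 and Col4a5 of the alveolar network did not pass, and Col4a5 also belongs to the network of Col4a6. Col4a1 was at 3031, 3185 and 2867 CPM in PQ 1w lungs, against 1534, 1538 and 1713 CPM in control 1w lungs. Every PQ 1w library lay above every control 1w library. Col4a1 rose 1.90-fold (log2 0.92 ± 0.09, adjusted p = 4.22e-06). Its partner Col4a2 was at 2280, 2347 and 2132 CPM in PQ 1w, against 1177, 1202 and 1383 CPM in control 1w. These groups also did not overlap, and Col4a2 rose 1.80-fold (log2 0.85 ± 0.11, adjusted p = 4.59e-05).

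Col4a6 was the lowest of the chains and the only one that fell at 1w. It stood at 17.1, 18.5 and 15.1 CPM in PQ 1w, against 30.1, 27.0 and 29.7 CPM in control 1w, with no overlap. Its level in PQ 1w was 0.583 times that in control 1w (log2 -0.78 ± 0.11, adjusted p = 0.000129). These values rest on 277 to 339 counts per PQ 1w library and 474 to 534 per control 1w library. Airway epithelium markers (8 of 8) summed to 4371 to 5567 CPM in PQ 1w and 22372 to 31405 CPM in control 1w. Most of that sum was Scgb1a1, a secreted protein of club cells, at a mean of 4009 CPM in PQ 1w and 24846 CPM in control 1w. Of the 8 markers, 1 rose, 2 fell and 5 did not pass, with a median log2 of -0.16, and none was at 0 in all libraries of a group. At 1w 25.9% of all tested genes rose and 22.9% fell, so the 2 of 8 airway markers that fell are near that share. The sum of the smooth muscle markers (8 of 8) went the other way, at 1170 to 1196 CPM in PQ 1w and 650 to 811 CPM in control 1w. Acta2 was at a mean of 426 CPM in PQ 1w and 157 CPM in control 1w, and Tagln at 318 and 189 CPM. Means of Des and Actg2 were also higher in PQ 1w, and those of Cnn1, Lmod1, Myh11 and Hhip were lower. Of the smooth muscle markers, 4 rose, 1 fell and 3 did not pass, with a median log2 of 0.18. The part of either list in the Col4a6 result was not tested.

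The 3 chains of the alveolar network had overlapping ranges at 1w. Col4a3 was at 258, 357 and 259 CPM in PQ 1w, against 315, 284 and 353 CPM in control 1w, an effect of log2 -0.12 ± 0.21 (adjusted p = 0.652). Col4a4 was at 159, 204 and 153 CPM in PQ 1w, against 139, 120 and 158 CPM in control 1w, an effect of log2 0.31 ± 0.19 (adjusted p = 0.2). Col4a5 was at 129, 164 and 126 CPM in PQ 1w, against 118, 127 and 144 CPM in control 1w, an effect of log2 0.11 ± 0.12 (adjusted p = 0.492). For each of the 3, replicate 2 was the highest PQ 1w library.

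In all, 2 of 6 chains rose at 1w and 1 fell, in a comparison in which 25.9% of all tested genes rose and 22.9% fell. Both counts are near those shares, so they do not set the 6 chains apart from other genes. The median log2 effect was 0.21 over the 6 chains and 0.0047 over all tested genes. Marker transcripts of several cell types of the lung differed between the same libraries, in both directions. Alveolar type 1 markers (12 of 12) summed to 7579 to 8621 CPM in PQ 1w and 9455 to 10654 CPM in control 1w. Of these, 4 fell and 1 rose. Alveolar fibroblast markers (8 of 8) summed to 2171 to 2824 CPM in PQ 1w and 4322 to 4920 CPM in control 1w, and 7 fell and 0 rose. Endothelium markers (10 of 10 matched) summed to 3781 to 4269 CPM in PQ 1w and 5418 to 6304 CPM in control 1w, and 7 of them fell and 0 rose. Smooth muscle markers (8 of 8) summed to 1170 to 1196 CPM in PQ 1w and 650 to 811 CPM in control 1w, with 4 higher and 1 lower. Mesothelium markers (6 of 6) summed to 870 to 971 CPM in PQ 1w and 419 to 487 CPM in control 1w, with 2 higher and 0 lower. Pericyte markers (8 of 8) summed to 596 to 615 CPM in PQ 1w and 513 to 598 CPM in control 1w, with 4 higher and 1 lower. The pericyte ranges overlapped. No list had a marker at 0 in all 3 libraries of a group. The part of these markers in the rise of Col4a1 and Col4a2 was not tested, and in whole tissue a change in cell number and in RNA per cell cannot be told apart.

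**Figure D1:**
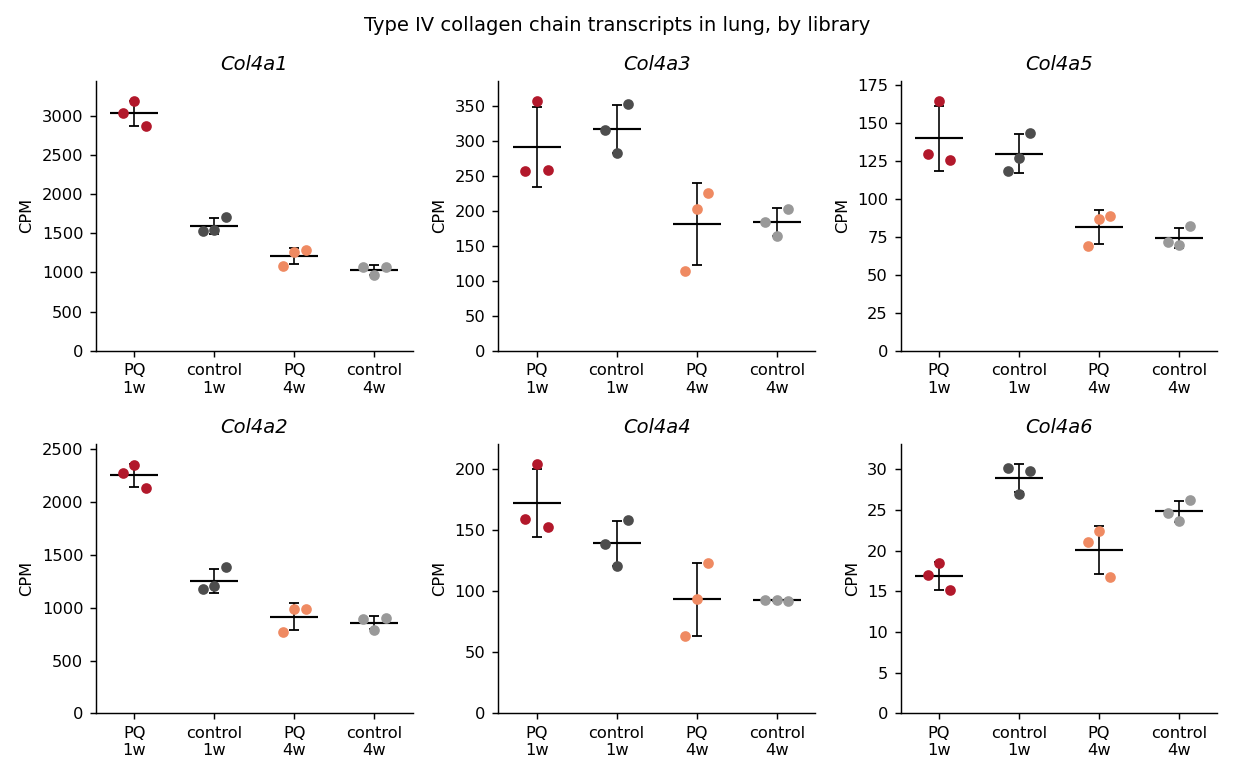
CPM of the 6 chains in each library (points) with the group mean and SD (lines); each panel has its own scale from 0. Col4a1 and Col4a2 sit highest in the 3 PQ 1w libraries, at 2867 to 3185 and 2132 to 2347 CPM, and Col4a6 has its lowest group mean there, at 15.1 to 18.5 CPM, a range that overlaps that of PQ 4w.

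At 4w, 0 of 6 chains passed between PQ and control under edgeR's quasi-likelihood test, in a comparison in which 5.75% of all tested genes rose and 6.39% fell. For 6 genes, a count of 0 is near those shares. Scaled to library totals alone, the split over all tested genes was 1370 higher and 631 lower, against 915 and 1017 with TMM factors. At an unadjusted p under 0.05 there were 2 chains, Col4a1 and Col4a6, and DESeq2 and limma each called 1, which was Col4a1. Col4a1 was at 1087, 1256 and 1280 CPM in PQ 4w, against 1068, 961 and 1062 CPM in control 4w. The ranges did not overlap, though the gap was narrow, and the effect was log2 0.23 ± 0.08 (1.17-fold, adjusted p = 0.101). Col4a1 passed with library totals alone (log2 0.30, adjusted p = 0.0266), with DESeq2 (0.25, adjusted p = 0.0288) and with limma on FPKM (0.30, adjusted p = 0.0241), and its adjusted p reached 0.254 over all alternatives.

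Col4a6 was at 21.1, 22.4 and 16.7 CPM in PQ 4w, against 24.6, 23.6 and 26.2 CPM in control 4w. Here too every PQ 4w library lay below every control 4w library, with an effect of log2 -0.31 ± 0.11 (adjusted p = 0.095). Col4a2 was at 769, 986 and 990 CPM in PQ 4w, against 892, 788 and 899 CPM in control 4w, and the ranges overlapped (log2 0.09 ± 0.11, adjusted p = 0.625).

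For every chain, the alveolar chains among them, the PQ 4w libraries were spread more widely than the controls. The SD of Col4a1 was 105 CPM in PQ 4w and 60.1 CPM in control 4w. That of Col4a2 was 127 and 62.1 CPM, and that of Col4a6 was 2.97 and 1.29 CPM. Col4a3 was at 114, 203 and 225 CPM in PQ 4w, against 185, 164 and 203 CPM in control 4w (log2 -0.03 ± 0.21, adjusted p = 0.955). Col4a4 was at 63.2, 93.4 and 123 CPM in PQ 4w, against 92.5, 92.9 and 91.9 CPM in control 4w (log2 0.01 ± 0.19, adjusted p = 0.975). Col4a5 was at 68.6, 86.9 and 88.6 CPM in PQ 4w, against 71.3, 69.9 and 81.8 CPM in control 4w (log2 0.13 ± 0.13, adjusted p = 0.541). The PQ 4w range enclosed the control 4w range for each of the 3, and also for Col4a2. Without PQ 4w replicate 1 the Col4a3 effect was log2 0.22, and without PQ 4w replicate 3 the Col4a4 effect was log2 -0.24, and neither passed.

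PQ 4w replicate 1 was the lowest of its group for Col4a1, Col4a2, Col4a3, Col4a4 and Col4a5, and replicate 3 the lowest for Col4a6. The summed level of 12 of 12 alveolar type 1 markers was also lowest in replicate 1, at 4271 CPM, against 6712 CPM in replicate 2 and 7260 CPM in replicate 3. It was 8284 to 9327 CPM in control 4w, and 4 of the 12 fell and 0 rose. Endothelium markers (10 of 10) summed to 3091, 4184 and 4301 CPM in PQ 4w and to 5751 to 6124 CPM in control 4w, with 9 of 10 lower and 1 higher. Of all tested genes, 6.39% fell and 5.75% rose at 4w. No marker of either list was at 0 in all 3 libraries of a group, and their part in the spread of the chains was not tested. The median log2 effect at 4w was 0.05 over the 6 chains and 0.0044 over all tested genes.

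The PQ effect at 4w was smaller than that at 1w for Col4a1 and Col4a2. The difference between the effects was tested as an interaction, 4w minus 1w. It was log2 -0.70 ± 0.12 for Col4a1 (adjusted p = 0.0012) and log2 -0.76 ± 0.15 for Col4a2 (adjusted p = 0.00272). For Col4a6 it was log2 0.47 ± 0.16 (adjusted p = 0.0372), with effects of -0.31 at 4w and -0.78 at 1w. The Col4a6 difference was not past the threshold with the replicate number as a block (log2 0.47, adjusted p = 0.102), nor in 8 of 12 fits without 1 library. Those 8 left out PQ 1w replicate 1 or 3, control 1w replicate 1 or 3, PQ 4w replicate 1 or 2, or control 4w replicate 1 or 2, with adjusted p from 0.0566 to 0.0916. The difference was 0.10 ± 0.30 for Col4a3, -0.29 ± 0.27 for Col4a4 and 0.02 ± 0.18 for Col4a5, and none of these passed (adjusted p = 0.827, 0.433 and 0.938). So 2 of 6 chains were lower and 1 higher in this contrast, where 17.9% of all tested genes were lower and 14.1% higher. For 6 genes, counts this small do not set the chains apart from those shares. The median was log2 -0.14 over the chains and -0.012 over all tested genes.

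**Figure D2:**
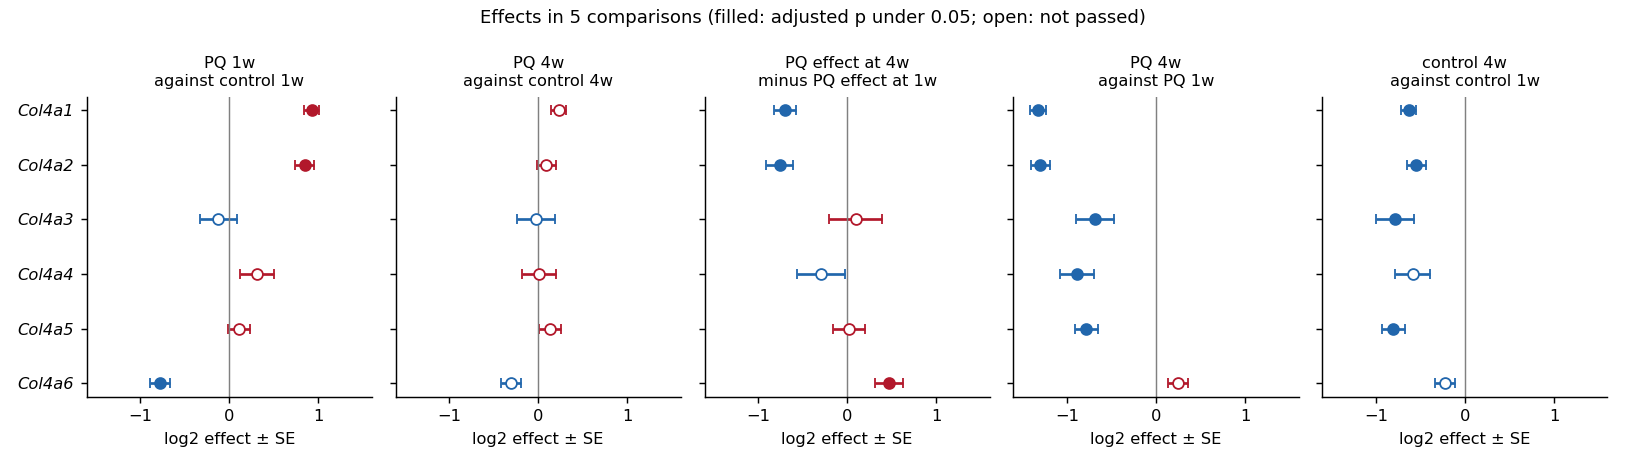
Log2 effect with its standard error for the 6 chains in 5 comparisons from 1 fit; filled points had an adjusted p under 0.05. Col4a1 and Col4a2 lie right of 0 in PQ 1w against control 1w and left of 0 in both contrasts of 4w with 1w.

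Most chains were lower at 4w than at 1w, in paraquat-treated and in saline-treated lungs. Among PQ lungs, 5 of 6 chains fell and 0 rose, in a contrast in which 27.8% of all tested genes fell and 26.7% rose. Col4a1 in PQ 4w was at 0.399 times its PQ 1w level (log2 -1.33 ± 0.09, adjusted p = 3.08e-07) and Col4a2 at 0.406 times (log2 -1.30 ± 0.11, adjusted p = 1.72e-06). Col4a4 fell by 0.88 ± 0.19 on the log2 scale (adjusted p = 0.00208) and Col4a5 by 0.78 ± 0.12 (adjusted p = 0.000246). Col4a3 fell by 0.69 ± 0.21 (adjusted p = 0.0154), a call lost without PQ 1w replicate 2 (log2 -0.52, adjusted p = 0.0719) and in a fit of the PQ libraries alone (adjusted p = 0.0566). Col4a6 had an effect of log2 0.25 ± 0.11 (adjusted p = 0.0768), which passed without PQ 4w replicate 3 (log2 0.35, adjusted p = 0.0113) and with library totals alone (log2 0.32, adjusted p = 0.0274). The median was log2 -0.83 over the chains and 0.0037 over all tested genes.

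Markers of several cell types differed between the same PQ libraries. Mesothelium markers (6 of 6) summed to 302 to 356 CPM in PQ 4w and 870 to 971 CPM in PQ 1w, and all 6 fell. Macrophage markers (8 of 8) summed to 495 to 555 CPM in PQ 4w and 874 to 934 CPM in PQ 1w, with 5 lower and 0 higher. Alveolar type 1 markers (12 of 12) summed to 4271 to 7260 CPM in PQ 4w and 7579 to 8621 CPM in PQ 1w, with 5 lower and 1 higher. Airway markers (8 of 8) summed to 22787 to 47181 CPM in PQ 4w and 4371 to 5567 CPM in PQ 1w, with 6 higher and 0 lower. Between these groups 27.8% of all tested genes fell and 26.7% rose. No marker of these lists was at 0 in all 3 libraries of a group, and their part in the fall of the chains between PQ 1w and PQ 4w was not tested.

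Among saline lungs, 4 of 6 chains fell at 4w relative to 1w and 0 rose, in a contrast in which 4.2% of all tested genes fell and 5.9% rose. Col4a5 in control 4w was at 0.573 times its control 1w level (log2 -0.80 ± 0.12, adjusted p = 0.0104), and Col4a1 at 0.646 times (log2 -0.63 ± 0.08, adjusted p = 0.00719). Their ranges did not overlap: Col4a5 was at 69.9 to 81.8 CPM in control 4w and 118 to 144 CPM in control 1w, and Col4a1 at 961 to 1068 CPM in control 4w and 1534 to 1713 CPM in control 1w. Col4a2 fell by 0.54 ± 0.11 on the log2 scale (adjusted p = 0.0193) and Col4a3 by 0.79 ± 0.21 (adjusted p = 0.0394). The Col4a2 call was lost without control 1w replicate 3, control 4w replicate 2 or control 4w replicate 3, with adjusted p up to 0.077. The Col4a3 call was lost without any of 6 libraries, with adjusted p up to 0.137: control 1w replicates 1 and 3, control 4w replicates 1, 2 and 3, and PQ 1w replicate 3, which enters through the shared spread.

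Col4a4, at log2 -0.59 ± 0.19 (adjusted p = 0.069), and Col4a6, at -0.22 ± 0.11 (adjusted p = 0.206), did not pass between the saline groups. Col4a4 passed with DESeq2 (adjusted p = 0.0162), in a fit of the control libraries alone (adjusted p = 0.00487), and without PQ 4w replicate 1 (adjusted p = 0.0238) or 3 (adjusted p = 0.016). The median was log2 -0.61 over the chains and 0.010 over all tested genes. The contrasts of PQ 4w with PQ 1w and of PQ with control share libraries, so their values are not independent. Mesothelium markers (6 of 6) summed to 322 to 372 CPM in control 4w and 419 to 487 CPM in control 1w, with 2 lower and 0 higher. Airway markers (8 of 8) summed to 46064 to 54985 CPM in control 4w and 22372 to 31405 CPM in control 1w, with 4 higher and 0 lower. Cardiac muscle markers (6 of 6) summed to 525 to 1462 CPM in control 4w and 52.5 to 282 CPM in control 1w, with 5 higher and 0 lower. Between the saline groups 4.2% of all tested genes fell and 5.9% rose. The part of these markers in the fall of the chains was not tested.

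Between chains, levels were compared as FPKM, which scales the count to transcript length and library size. Col4a1 stood highest and Col4a2 next in all 4 groups: Col4a1 was at 446 ± 22.0 FPKM in PQ 1w, 233 ± 15.5 in control 1w, 186 ± 14.3 in PQ 4w and 151 ± 6.20 in control 4w. Col4a2 was at 341 ± 15 FPKM in PQ 1w, 188 ± 17.2 in control 1w, 145 ± 18.3 in PQ 4w and 129 ± 7.20 in control 4w. Col4a3 came after them at 33.1 ± 6.54 FPKM in PQ 1w, 35.7 ± 4.11 in control 1w, 21.4 ± 6.83 in PQ 4w and 20.8 ± 1.95 in control 4w.

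Col4a4 and Col4a5 had overlapping ranges in every group. Within libraries, Col4a5 was above Col4a4 in 3 of 3 of control 1w, where Col4a4 over Col4a5 was 0.776 to 0.962, and the order was mixed in the other 3 groups. Col4a4 was at 21.5 ± 3.51 FPKM in PQ 1w, 17.3 ± 2.42 in control 1w, 12.2 ± 3.89 in PQ 4w and 11.5 ± 0.257 in control 4w. Col4a5 was at 21.3 ± 3.22 FPKM in PQ 1w, 19.6 ± 1.86 in control 1w, 13.0 ± 1.63 in PQ 4w and 11.3 ± 0.922 in control 4w. In PQ 4w the range of Col4a3 also overlapped those of Col4a4 and Col4a5. Col4a6 stood last in all groups, at 2.48 ± 0.24 FPKM in PQ 1w, 4.22 ± 0.291 in control 1w, 3.09 ± 0.438 in PQ 4w and 3.64 ± 0.159 in control 4w.

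Ratios of FPKM within a library gave the balance between chains. The alveolar chains Col4a3, Col4a4 and Col4a5 together were at 0.0961 ± 0.0126 of Col4a1 plus Col4a2 in PQ 1w, against 0.172 ± 0.0076 in control 1w, and the ranges did not overlap. At 4w the ratio was 0.139 ± 0.0241 in PQ and 0.155 ± 0.00625 in control, with overlap. Col4a6 over Col4a5 was 0.117 ± 0.0094 in PQ 1w, against 0.217 ± 0.025 in control 1w, and 0.242 ± 0.0573 in PQ 4w, against 0.323 ± 0.0121 in control 4w. Those ranges did not overlap at either time. With 3 libraries against 3, an exact two-sided permutation test cannot go below 0.1, so the ratios are given by their ranges.

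Within the head-to-head pairs, Col4a2 over Col4a1 stayed between 0.726 and 0.868 over the 12 libraries. It was 0.764 ± 0.00795 in PQ 1w and 0.806 ± 0.021 in control 1w, and 0.775 ± 0.0431 in PQ 4w and 0.856 ± 0.0135 in control 4w, with no overlap at either time. Col4a4 over Col4a3 was 0.654 ± 0.026 in PQ 1w and 0.482 ± 0.0126 in control 1w, without overlap, while at 4w it was 0.574 ± 0.0573 in PQ and 0.558 ± 0.0627 in control, with overlap. The chains summed to 866 ± 49.4 FPKM in PQ 1w, 498 ± 40.4 in control 1w, 381 ± 44.4 in PQ 4w and 328 ± 15.5 in control 4w. Set against all collagen chain genes, the 6 chains held 23.5 ± 1.62% of collagen FPKM in PQ 1w and 39.4 ± 1.96% in control 1w. At 4w their share was 36.5 ± 2.11% in PQ and 37.4 ± 1.37% in control. Those shares did not overlap at 1w and overlapped at 4w.

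**Figure D3:**
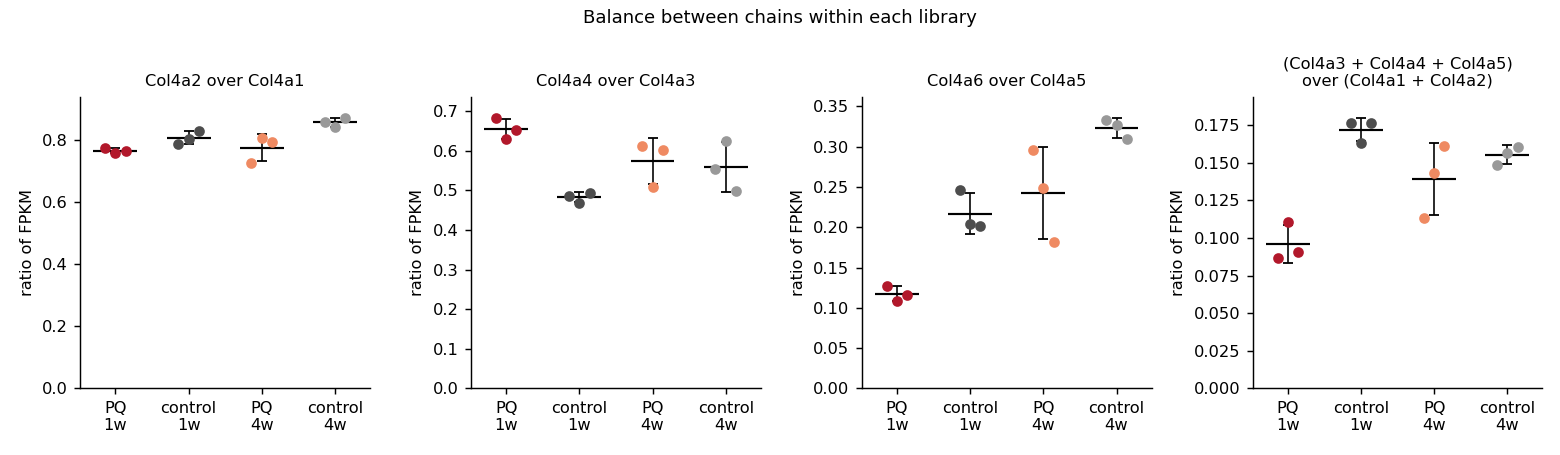
Ratios of FPKM between chains within each library (points), with the group mean and SD (lines), on axes from 0. The alveolar chains over Col4a1 plus Col4a2, and Col4a6 over Col4a5, are lowest in the 3 PQ 1w libraries, at means of 0.0961 and 0.117.

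The likeness of profiles was measured as the root mean square difference of centred log2 CPM over 12 libraries, across 12449 genes with a mean of at least 5 CPM. Col4a1 and Col4a2 differed by 0.074, and Col4a1 was the nearest gene to Col4a2. The nearest to Col4a1 was Pdzrn3, a ubiquitin ligase, at 0.067, with Col4a2 next and the laminin chain Lamb3 at 0.123. Col4a2 was followed by Pdzrn3 at 0.0998 and the laminin receptor Dag1 at 0.116.

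The alveolar chains were near one another. For Col4a3 the nearest genes were Ndst1 (0.151), Lama3 (0.156) and Sema3a (0.173), with Col4a4 at rank 4 and Col4a5 at rank 5. For Col4a4 they were Hs2st1 (0.0942), Sema3a (0.13) and Fbln5 (0.13), with Col4a5 at rank 11 and Col4a3 at rank 12. For Col4a5 they were Scd1 (0.137), Colec12 (0.148) and Tmem132c (0.158), with Col4a4 at rank 8 and Col4a3 at rank 14. Col4a6 was nearest to Dapk1 (0.12), Kcnj15 (0.125) and Tgfa (0.128), and its partner Col4a5 was at rank 10315, with the other 4 chains at 10097 to 11710. These distances describe the same 12 libraries as the tests and share their group differences.

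**Figure D4:**
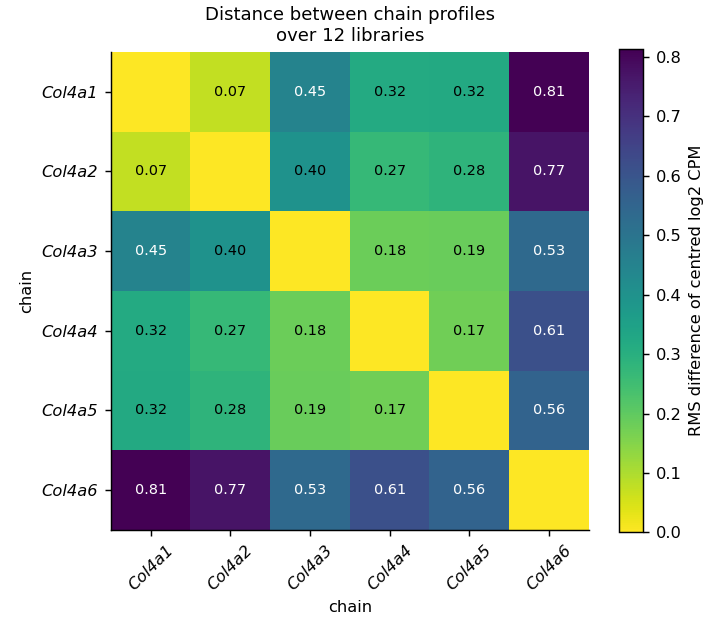
Root mean square difference of centred log2 CPM over 12 libraries for each pair of chains; darker cells are farther apart. Col4a1 and Col4a2 are nearest, at 0.074, the 3 alveolar chains are 0.175 to 0.185 apart, and Col4a6 is 0.535 or more from every other chain.

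Genes listed for the synthesis and secretion of collagen IV, among them enzymes, chaperones, export genes and a secreted matrix protein, mostly rose at 1w. Of 19 tested, 11 rose, 3 fell and 5 did not pass, with a median log2 of 0.45, where 25.9% of all tested genes rose and 22.9% fell. P4ha3, a catalytic subunit of prolyl hydroxylase, was at 34.3 ± 9.11 CPM in PQ 1w and 3.40 ± 0.399 CPM in control 1w (log2 3.33, adjusted p = 3.26e-07). P3h1, which hydroxylates other prolines, rose by log2 1.15 (adjusted p = 2.99e-07), and Colgalt1, which adds galactose to hydroxylysine, by 0.83 (adjusted p = 2.27e-06). P4ha1, another catalytic subunit of prolyl hydroxylase, was at 71.7 ± 6.54 CPM in PQ 1w and 168 ± 13.6 CPM in control 1w (log2 -1.23, adjusted p = 5.38e-06). Serpinh1, the collagen chaperone, had an effect of log2 0.16 at 1w (adjusted p = 0.266). At 4w, 1 of 19 rose, 4 fell and 14 did not pass, with a median log2 of -0.05, where 5.75% of all tested genes rose and 6.39% fell. The 4 that fell were P4ha2 (log2 -0.60, adjusted p = 0.00207), the lysyl hydroxylase Plod2 (-0.51, adjusted p = 0.0178), P4ha1 (-0.49, adjusted p = 0.0193) and Serpinh1 (-0.43, adjusted p = 0.0265).

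Both enzymes listed for crosslinking the network rose at 1w, when 25.9% of all tested genes rose. Neither passed at 4w, when 5.75% of all tested genes rose and 6.39% fell. For 2 genes, a count of 0 is near those shares. Loxl2, a lysyl oxidase, was at 264 ± 28.3 CPM in PQ 1w and 71.3 ± 1.65 CPM in control 1w (log2 1.89, adjusted p = 2.85e-07), and had an effect of log2 -0.16 at 4w (adjusted p = 0.425). Pxdn, the peroxidase that forms sulfilimine bonds between collagen IV ends, was at 314 ± 22.4 CPM in PQ 1w and 232 ± 25.6 CPM in control 1w (log2 0.44, adjusted p = 0.0198). At 4w its effect was log2 -0.34 (unadjusted p = 0.0293 and adjusted p = 0.129 in edgeR).

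Of 22 other basement membrane genes, 14 rose at 1w, 2 fell and 6 did not pass, with a median log2 of 0.48 (all tested genes: 25.9% rose and 22.9% fell). Col18a1 (log2 1.57, adjusted p = 5.96e-07) and Col15a1 (1.96, adjusted p = 9.23e-07), collagens of the basement membrane zone, rose. The nidogens Nid1 (0.82, adjusted p = 0.000258) and Nid2 (0.79, adjusted p = 3.78e-05), which bridge laminin and collagen IV, and perlecan, Hspg2 (0.45, adjusted p = 0.00488), rose. At 4w, 3 of 22 rose, 1 fell and 18 did not pass, with a median log2 of -0.0081 (all tested genes: 5.75% rose and 6.39% fell). The 1 that fell is near that share. The laminin chain Lamc3 rose (log2 0.82, adjusted p = 0.00113), and Tinagl1, a matrix protein of basement membranes, fell (-0.84, adjusted p = 0.00608).

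Of 6 receptors for collagen IV, 1 rose at 1w, 3 fell and 2 did not pass, with a median log2 of -0.15. Over all tested genes 25.9% rose and 22.9% fell, and the rise of 1 of 6 is near that share. Ddr1, a receptor tyrosine kinase, was at 135 ± 7.77 CPM in PQ 1w and 86.9 ± 3.36 CPM in control 1w (log2 0.64, adjusted p = 8.26e-05). The collagen-binding integrin Itga1 was at 79.1 ± 15.6 CPM in PQ 1w and 136 ± 15.8 CPM in control 1w (log2 -0.78, adjusted p = 0.000489), and Itga10 also fell (-1.0, adjusted p = 0.000181). At 4w, Adgrg6, an adhesion receptor, fell (log2 -0.44, adjusted p = 0.0314), and the other 5 did not pass, among them Itgb1 at -0.20 (adjusted p = 0.126), where 6.39% of all tested genes fell.

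Most of the proteases that can cut collagen IV rose at both times, while Mmp9 fell. Of 9 listed, 8 were matched and tested, and Mmp7 was not matched. At 1w 6 rose, 1 fell and 1 did not pass, with a median log2 of 1.27, and at 4w 5 rose, 1 fell and 2 did not pass, with a median of 0.74. Over all tested genes 25.9% rose and 22.9% fell at 1w, and 5.75% rose and 6.39% fell at 4w. Mmp14, a membrane protease that activates Mmp2, was at 549.8 ± 35.1 CPM in PQ 1w and 116 ± 1.06 CPM in control 1w (log2 2.24, adjusted p = 1.07e-08). Mmp14 also rose at 4w (0.54, adjusted p = 0.0021). Mmp2, a gelatinase, was at 514 ± 78.0 CPM in PQ 1w and 158 ± 13.4 CPM in control 1w (log2 1.70, adjusted p = 7.11e-07), and at 232 ± 22.0 CPM in PQ 4w and 121 ± 15.4 CPM in control 4w (0.95, adjusted p = 0.00123). The cathepsin Ctsb rose at 1w (log2 1.05, adjusted p = 2.82e-07) and at 4w (0.26, adjusted p = 0.0266). The other gelatinase, Mmp9, fell at 1w (log2 -1.02, adjusted p = 0.0295) and at 4w (-1.36, adjusted p = 0.0273). Mmp12, the macrophage elastase, rose at 4w (2.79, adjusted p = 0.00105), as did the cathepsin Ctss (1.29, adjusted p = 0.000347). Both also rose at 1w, Mmp12 by log2 1.18 (adjusted p = 0.0119) and Ctss by 1.35 (adjusted p = 6.15e-06). Macrophage markers (8 of 8) summed to 874 to 934 CPM in PQ 1w and 380 to 429 CPM in control 1w, and to 495 to 555 CPM in PQ 4w and 325 to 352 CPM in control 4w, with none at 0 in all libraries of a group. Of the 8, 5 rose and 0 fell at 1w, and 4 rose and 1 fell at 4w. Their part in the protease results was not tested.

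Of 4 tissue inhibitors of metalloproteases, 2 rose at 1w, when 25.9% of all tested genes rose, and 2 did not pass, with a median log2 of 0.55. At 4w none of the 4 passed under edgeR, also at an unadjusted p under 0.05 (median 0.15). At that time 5.75% of all tested genes rose and 6.39% fell, and for 4 genes a count of 0 is near those shares. Timp1 was at 109.8 ± 8.85 CPM in PQ 1w and 10.3 ± 0.871 CPM in control 1w (log2 3.41, adjusted p = 8.81e-08), and Timp2 rose by log2 0.34 (adjusted p = 0.00109). Timp4 had an effect of 0.76 at 1w and did not pass (adjusted p = 0.207). At 4w Timp1 had an effect of log2 0.34 (adjusted p = 0.269) and Timp2 of -0.06 (adjusted p = 0.628).

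**Figure D5:**
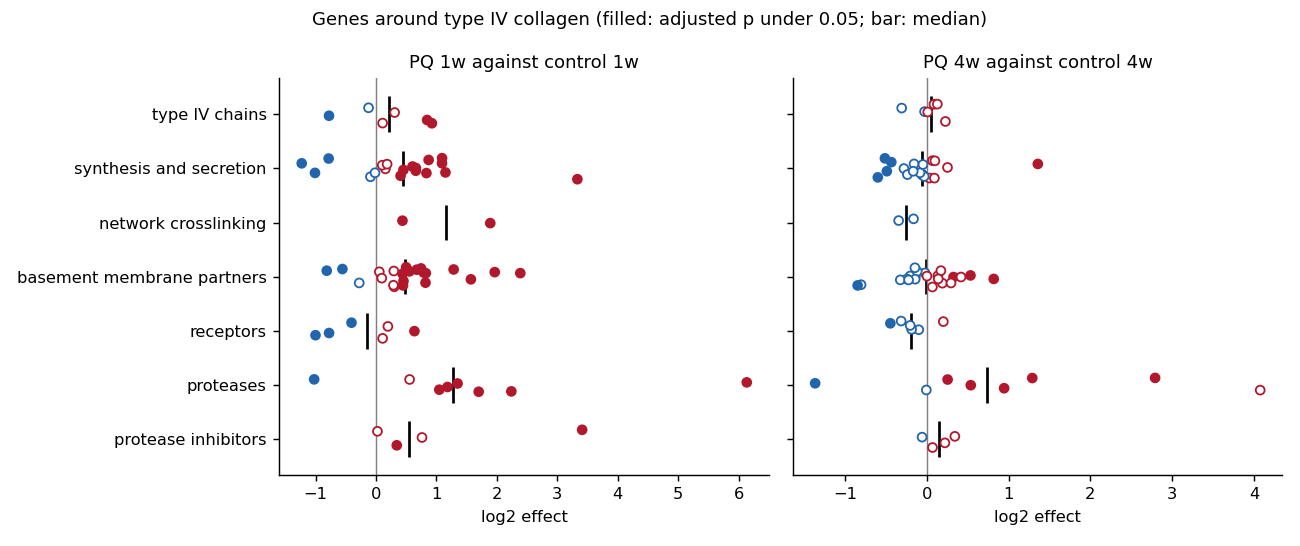
Log2 effects of PQ against control at 1w (left) and 4w (right) for the 6 chains and for genes of collagen IV synthesis, crosslinking, basement membrane, receptors, proteases and inhibitors; points are genes, filled where the adjusted p was under 0.05, and bars are medians. The proteases have the highest medians, at 1.27 and 0.74.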

How the data were processed

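RNA from homogenised lung was sequenced on a BGISEQ 500 after a check of RNA integrity (number over 7), per the labels' protocols. HISAT, RSEM 1.2.12 and mm10 are named, per the submitters' processing notes; the HISAT version, annotation release and library strandedness were not given in the sources used here. Expected counts came from the authors and were deposited unscaled, per the file headers. FPKM values, also from the authors, were deposited in the same tables, per the file headers. Of counts above 0, 69.73% were whole; counts were rounded, and genes absent from a library's table entered as 0. The combined FPKM table had 0 columns without a sample and differed by at most 0 from the single tables, and 27 symbols that read as dates were replaced from gene IDs.

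The test was edgeR 4.0.16 (quasi-likelihood, R 4.3.3) on 12 libraries and 4 groups, with TMM factors of 0.974 to 1.06, filterByExpr (minimum count 10, minimum total 15) and Benjamini-Hochberg adjustment over 15921 genes. The fit was also run on simulated counts with the same spread for every gene and no outlying library. Those settings differ from these libraries, so that run cannot show how the test behaves on them. CPM divided counts by library total times TMM factor. DESeq2 1.42.0 and limma 3.58.1 on log2 (FPKM + 0.1) were alternatives, with other scalings, no filter, only the compared libraries, a replicate block and each library left out. Positions came from RefSeq tables of GRCm38.p6, matched on gene ID. The members and lists were chosen with earlier results of these data known. All 6 chains were named; of each list, the 3 genes with the smallest p at 1w and the 2 at 4w, and always Pxdn, Hspg2, Nid1, Itga1, Mmp2, Mmp9, Serpinh1 and P4ha1; and the 3 nearest profiles per chain. Tables and figures used Python 3.11.15 with pandas 2.3.3, matplotlib 3.10.9 and numpy 2.4.6.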

Additional observations from a re-analysis of the deposited data

Results flagged for a closer look

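The effect of paraquat on 3 chains differed between the times by a test of the difference itself, from edgeR's quasi-likelihood fit with Benjamini-Hochberg adjustment. For Col4a1 the effect at 4w minus that at 1w was log2 -0.70 (adjusted p = 0.0012), with effects of 0.23 at 4w and 0.92 at 1w. For Col4a2 the difference was log2 -0.76 (adjusted p = 0.00272), with effects of 0.09 at 4w and 0.85 at 1w. For Col4a6 it was log2 0.47 (adjusted p = 0.0372), with effects of -0.31 at 4w and -0.78 at 1w. The Col4a1 and Col4a2 differences also passed in all 18 alternatives in which they were fitted, and the Col4a6 difference in 9 of 18.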

How the results depend on the processing

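The rise of Col4a1 and Col4a2 and the fall of Col4a6 at 1w passed in all 19 alternatives, with log2 effects of 0.89 to 0.99, 0.81 to 0.93 and -0.85 to -0.70. At 4w the count of chains called was 1 in place of 0 with library totals alone, with DESeq2 and with limma on FPKM. Leaving out each library gave 3 to 3 chains called at 1w, 0 to 0 at 4w, 2 to 3 for the difference of effects, 4 to 6 for PQ 4w against PQ 1w and 2 to 5 for control 4w against control 1w. Effects near 0 changed sign: Col4a3 at 4w was 0.044 with library totals alone, and Col4a4 at 4w was -0.036 with the replicate block. Without 1 library in turn, Col4a5 at 1w ran from -0.023 to 0.20, Col4a3 at 4w from -0.22 to 0.22, Col4a4 at 4w from -0.24 to 0.23, and the difference of effects from -0.10 to 0.34 for Col4a3 and from -0.061 to 0.15 for Col4a5. None of these passed, and the cause was not tested. Correlations of same-numbered libraries ran from -0.35 to 0.24, and those of different-numbered libraries from -0.30 to 0.31. These cannot show whether the replicate numbers pair the samples, which the labels do not say. The replicate block left 3 chains called at 1w, 0 at 4w and 2 for the difference of effects, where Col4a6 was lost (log2 0.47, adjusted p = 0.102). Over all genes at 4w, 1932 passed in the main fit, 746 with only the compared libraries and 895 with the replicate block. The chains' shares of summed FPKM moved by less than 1 SD in all 96 alternative values, from count over length or without 1 library. Leaving out 1 of 3 libraries cannot move a mean by 1 SD of the same 3, so those values could not have moved more. The 3 libraries per group limit the precision of every effect, and Col4a6 had the lowest counts, 277 to 534 per library. No fit of only the compared libraries exists for the difference of effects, which uses all 12.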

Other observations

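The transcript length that RSEM assigned to Col4a5 differed between all 12 libraries, from 6388 to 6450 bases, while each of the other 5 chains had 1 length throughout. RSEM weights this length by the isoforms it finds. It averaged 6426 ± 22.7 bases in PQ 1w, 6420 ± 31.3 in control 1w, 6407 ± 4.25 in PQ 4w and 6419 ± 5.54 in control 4w, and was not tested.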
